A study of Mus musculus with 6 samples.

Results

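The 53 genes described here encode subunits of chromatin remodelling complexes other than the ARID proteins. They were chosen by name from the count table: 22 belong to SWI/SNF and 31 to ISWI, NuRD, the other CHD proteins, the INO80 family and SMARCAD1. Of the 25703 genes in the table, 52 are members, and all 52 passed the filter on low counts. Actl6b, the neuronal actin-related subunit of SWI/SNF, is not among the genes of that table, in which each gene has a total of at least 10 counts.

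RNA from the proximal end of incisors was sequenced in 6 libraries, all from C57BL/6 mice at an age of 6 weeks. The 3 control libraries are Arid1a fl/fl, and the 3 Arid1a cKO libraries are Gli1-CreER;Arid1a fl/fl, so both groups carry the floxed alleles and the conditional knockout alone carries the recombinase. The labels give all 6 samples the same tamoxifen protocol, on each of 3 days, at 1 month of age, 1.5 mg for every 10 g of weight. CreER is active only in cells that express Gli1 when tamoxifen is given, so the tissue sequenced mixes recombined cells with others, and in such bulk RNA fewer cells of a type and less RNA per cell cannot be told apart. The labels do not say whether each library is a different animal. The p-values therefore measure the spread between the libraries, part of which may be technical. The extraction protocol speaks of 3 pairs of samples, but no label says which libraries pair, so all tests were unpaired.

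Remodelling complexes use an ATPase of the SNF2 family to slide, eject or exchange nucleosomes. SWI/SNF opens chromatin and comes in 3 forms that share an ATPase and scaffold subunits: canonical BAF, which contains ARID1A or ARID1B, PBAF, which contains ARID2 and PBRM1, and non-canonical BAF, which contains BRD9. ISWI enzymes space nucleosomes evenly, NuRD joins a CHD ATPase to histone deacetylases, and INO80 and its relatives exchange histone H2A variants. The mouse incisor grows throughout life from stem cells at its proximal end, whose progeny divide and then differentiate.

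The libraries held 27300932 to 37908478 counts. Arid1a, the targeted gene, stood at 222, 249 and 223 CPM (counts per 1000000 of the TMM-scaled library size) in control and at 136, 139 and 145 CPM in Arid1a cKO, with the values of a group listed here and throughout from replicate 1 to replicate 3. It fell 1.65-fold (Benjamini-Hochberg adjusted p = 0.00802 by edgeR's quasi-likelihood test, adjusted over all genes tested as are all p-values here). Markers of the dental mesenchyme were all detected, 10 of 10, with a summed level of 14677 to 35424 CPM in control and 23710 to 26545 CPM in Arid1a cKO, most of it Col1a1. Among them Nes, an intermediate filament gene of odontoblasts, was the only marker called and fell 1.82-fold (edgeR adjusted p = 0.0359). Log2 fold changes were negative in 6 of the 10 and positive in 4: Dmp1 (0.36), Pax9 (0.29), Dspp (0.27) and Runx2 (0.22). The 12 markers of dental epithelium were also detected, at 1176 to 4534 CPM in control and 1381 to 2987 CPM in Arid1a cKO. Of these only Epcam was called, rising 1.39-fold (edgeR adjusted p = 0.0199). Among the 12, 9 had positive and 3 negative log2 fold changes, the latter Amelx (-1.31), Enam (-1.12) and Amtn (-0.50). Control replicate 3 and Arid1a cKO replicate 1 express Xist, the RNA of the inactive X chromosome, and the other 4 libraries express Y-linked genes, so each group holds both sexes.

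To compare subunits with each other, CPM was divided by the length of the union of a gene's exons. On this scale 4 NuRD genes headed the members, while others of that complex, such as Mta3 (6.77 CPM per kb), lay far lower. Hdac1 stood at 10.8 CPM per kb, a level that leaves out the counts of a near-identical pseudogene described further on. In control the highest mean levels per kb were those of the NuRD ATPase Chd4 (64.4 CPM per kb), the histone chaperone Rbbp7 (59.8), the second NuRD ATPase Chd3 (49.1) and the methyl-CpG-binding-domain protein Mbd3 (44.6). The SWI/SNF scaffold Smarcc2 came next with 38.3 CPM per kb. At the other end, Dpf3 (0.558), Dpf1 (0.858) and the CHD7 remodeller (Chd7, 0.931) lay below 1 CPM per kb in control. Some neighbours in this order differed by less than their spread: Mta2 had 29.9 ± 0.766 and Hdac2 29.1 ± 0.905 CPM per kb (SD, n = 3). Mta1, with 31.9 ± 0.842, lay above Mta2 in each control library on this scale. The order of members depends on the length used. With the longest coding transcript in place of the union of exons, Mta1 lay below Mta2 in each control library (mean ratio 0.898). The same 4 NuRD genes still headed the members. Below them, Phf10 (48.01 CPM per kb) passed Smarcc2 (46.6), and Hdac2 (40.08) passed Mta2 (38.98). Dpf1 (1.997) and Chd7 (1.26) then lay above 1 CPM per kb in control, and Dpf3 (0.752) below.

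**Figure D1:**
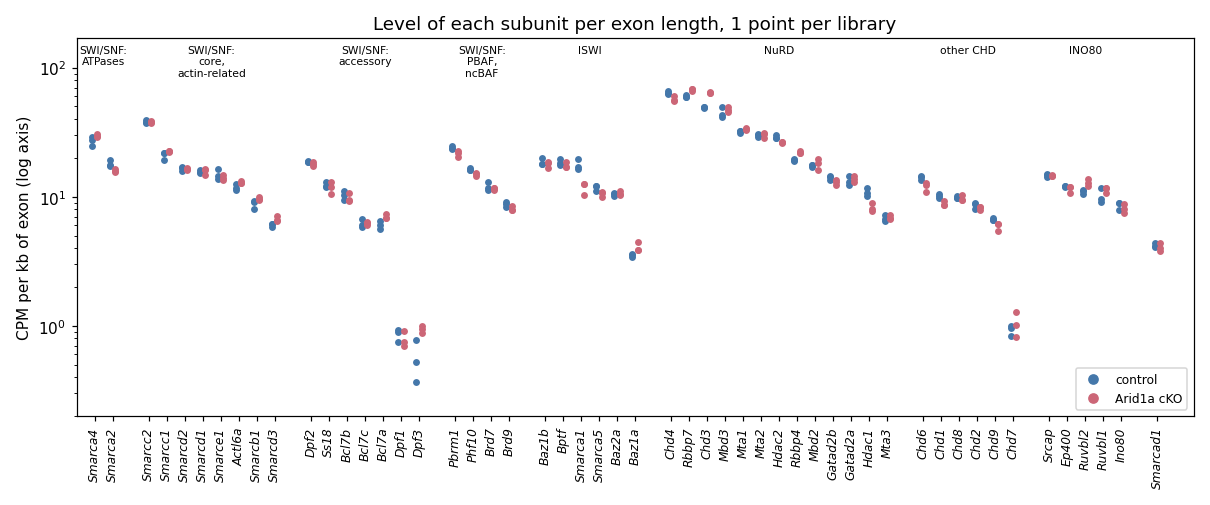
Level of each of the 52 measured subunits in CPM per kb of exon on a log axis, with 1 point per library, blue for control and red for Arid1a cKO, grouped by complex. Most subunits lie between 4 and 70 CPM per kb in both groups, and Dpf1, Dpf3 and Chd7 lie near 1.

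None of the measured SWI/SNF members passed the threshold in the tissue. Of the 21 subunits measured, 0 rose and 0 fell with edgeR's quasi-likelihood test at the adjusted threshold of 0.05, which 3.96% of all 19613 genes tested passed. DESeq2 and limma-voom also called 0 of the 21, where they called 10.5% and 3.4% of all genes they tested. At an unadjusted p under 0.05 there were 4 of 21, against 22% of all genes. The median log2 fold change of the 21 was -0.02, and that of all genes tested was 0.00. Control and Arid1a cKO values did not overlap in 9 of the 21 subunits (42.9%), 6 higher and 3 lower in Arid1a cKO, against 29.1% of all genes tested (13.8% higher and 15.3% lower).

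The 2 ATPases stood in opposite directions, neither past the threshold. Smarca2, which encodes BRM, measured 246, 273 and 251 CPM in control. It measured 225, 223 and 232 CPM in Arid1a cKO, below every control library (log2 fold change -0.18, 95% interval -0.33 to -0.02, edgeR adjusted p = 0.172). Smarca4, which encodes BRG1, measured 188, 159 and 178 CPM in control and 196, 193 and 187 CPM in Arid1a cKO, and its groups overlapped (0.14, interval -0.03 to 0.31, adjusted p = 0.318). The ratio of Smarca2 to Smarca4 per kb was 0.594, 0.782 and 0.641 in control and 0.520, 0.525 and 0.563 in Arid1a cKO, lower in each Arid1a cKO library than in any control. Which ATPase gene is the more abundant depends on the length used: with the longest coding transcript in place of the union of exons, the ratio was 1.41, 1.86 and 1.52 in control and 1.23, 1.25 and 1.34 in Arid1a cKO.

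The scaffold and core subunits, some of which non-canonical BAF lacks, such as SMARCB1 and SMARCE1, were measured with narrow intervals. Smarcb1, Smarcc1, Smarcc2, Smarcd1, Smarcd2 and Smarce1 had log2 fold changes from -0.08 to 0.13, and their 95% intervals reached no further than -0.26 and 0.29. The scaffold Smarcc2 read 218, 208 and 212 CPM in control and 206, 213 and 210 CPM in Arid1a cKO. Its partner Smarcc1 read 170, 170 and 149.8 CPM in control and 173, 177 and 177 CPM in Arid1a cKO, so its groups did not overlap, at a log2 fold change of 0.11 (edgeR adjusted p = 0.387). Smarcb1, the subunit lost in rhabdoid tumours, had means of 70.0 ± 5.38 CPM in control and 76.9 ± 2.01 CPM in Arid1a cKO (SD, n = 3 each), also without overlap.

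Among the core paralogues, the level of Smarcd1 was 0.951 ± 0.0241 times that of Smarcd2 per kb in control and 0.963 ± 0.0322 times in Arid1a cKO (SD, n = 3). Smarcd3, the form linked to heart and muscle, measured 31.5, 30.0 and 31.7 CPM in control and 33.2, 36.2 and 33.7 CPM in Arid1a cKO (log2 fold change 0.15, edgeR adjusted p = 0.242), without overlap. Of its exon bases 48.2% overlap Chpf2 on the opposite strand, and no source used here says whether counting used the strand, so reads of the 2 genes may be mixed. The actin-related subunit Actl6a, the form of dividing progenitors, measured 48.6, 44.1 and 45.5 CPM in control. In Arid1a cKO it measured 49.6, 51.3 and 49.5 CPM, above every control library (log2 fold change 0.12, adjusted p = 0.286). Of the exon bases of Actl6a, 11.6% overlap Mrpl47 on the opposite strand, so its reads may be mixed as well.

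The accessory subunits included the largest fold change of SWI/SNF, in a gene of low level. Dpf3, a reader of acetylated histones known from heart and muscle, had 70, 43 and 90 counts in control and 164, 148 and 113 counts in Arid1a cKO. This corresponds to 2.23, 1.56 and 3.29 CPM in control and 4.18, 4.01 and 3.73 CPM in Arid1a cKO, and the groups did not overlap. The log2 fold change of 0.75 had a wide interval of 0.15 to 1.36 and missed the threshold (edgeR adjusted p = 0.146). Of 6 skeletal muscle markers, Myog is not among the genes of the count table and Ckm did not pass the filter. None of the 4 tested passed the threshold by edgeR. The 5 measured summed to 2.71 to 25.6 CPM in control and 2.06 to 3.21 CPM in Arid1a cKO. Their part in the Dpf3 difference was not tested. The paralogue Dpf2, expressed in most tissues, lay at 121 ± 1.1 CPM in control and 116 ± 4.31 CPM in Arid1a cKO (SD, n = 3). Dpf1, a neuronal form, lay between 4.05 and 4.97 CPM in control and between 3.76 and 4.90 CPM in Arid1a cKO. Of the 6 neuron markers Snap25, like Actl6b, is not among the genes of the count table, and the list summed to at most 20.1 CPM in any library, most of it Gap43 in control. Of the 5 measured, Syt1 rose from 0.635 ± 0.0764 to 2.96 ± 1.13 CPM (SD, n = 3, 4.66-fold, edgeR adjusted p = 0.0191) and Gap43 fell from 13.3 ± 3.40 to 4.20 ± 1.27 CPM (3.16-fold, adjusted p = 0.0267). Rbfox3, Stmn2 and Elavl4 did not pass but were higher in each Arid1a cKO library than in any control library. The part of neurons in the levels of Dpf1 and of Smarca1, described further on, was not tested.

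Bcl7a, a subunit that binds the ATPase module, had the smallest p of the SWI/SNF genes. Its level was 57.1, 53.6 and 61.4 CPM in control and 64.9, 64.9 and 70.1 CPM in Arid1a cKO, with no overlap (log2 fold change 0.22, SE 0.0693, edgeR adjusted p = 0.121). Its relatives Bcl7b and Bcl7c overlapped between the groups, at log2 fold changes of -0.07 and 0.01. Ss18, the subunit fused to SSX in synovial sarcoma, measured 116 ± 4.72 CPM in control and 111 ± 11.2 CPM in Arid1a cKO (SD, n = 3).

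All 4 members grouped as particular to PBAF or non-canonical BAF had negative log2 fold changes, from -0.15 to -0.06, and none passed the threshold. Brd7 was above 0 only when control replicate 1 was left out. Outside the members, the SWI/SNF subunits Bicra and Bicral stood at -0.03 and 0.06, and their groups overlapped. Pbrm1, the bromodomain subunit of PBAF, measured 217, 213 and 208 CPM in control and 179, 194 and 201 CPM in Arid1a cKO (log2 fold change -0.15, edgeR adjusted p = 0.230). The PBAF subunit Phf10 measured 82.0, 78.8 and 78.7 CPM in control and 70.9, 75.0 and 73.0 CPM in Arid1a cKO (-0.13, adjusted p = 0.208). In both genes each Arid1a cKO library lay below each control library, as in 15.3% of all genes tested. Of the exon bases of Phf10, 9.6% overlap 1600012H06Rik on the opposite strand. Brd7 of PBAF and Brd9 of non-canonical BAF overlapped between the groups. Added up, the 4 genes reached 409 to 424 CPM in control and 366 to 389 CPM in Arid1a cKO.

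**Figure D2:**
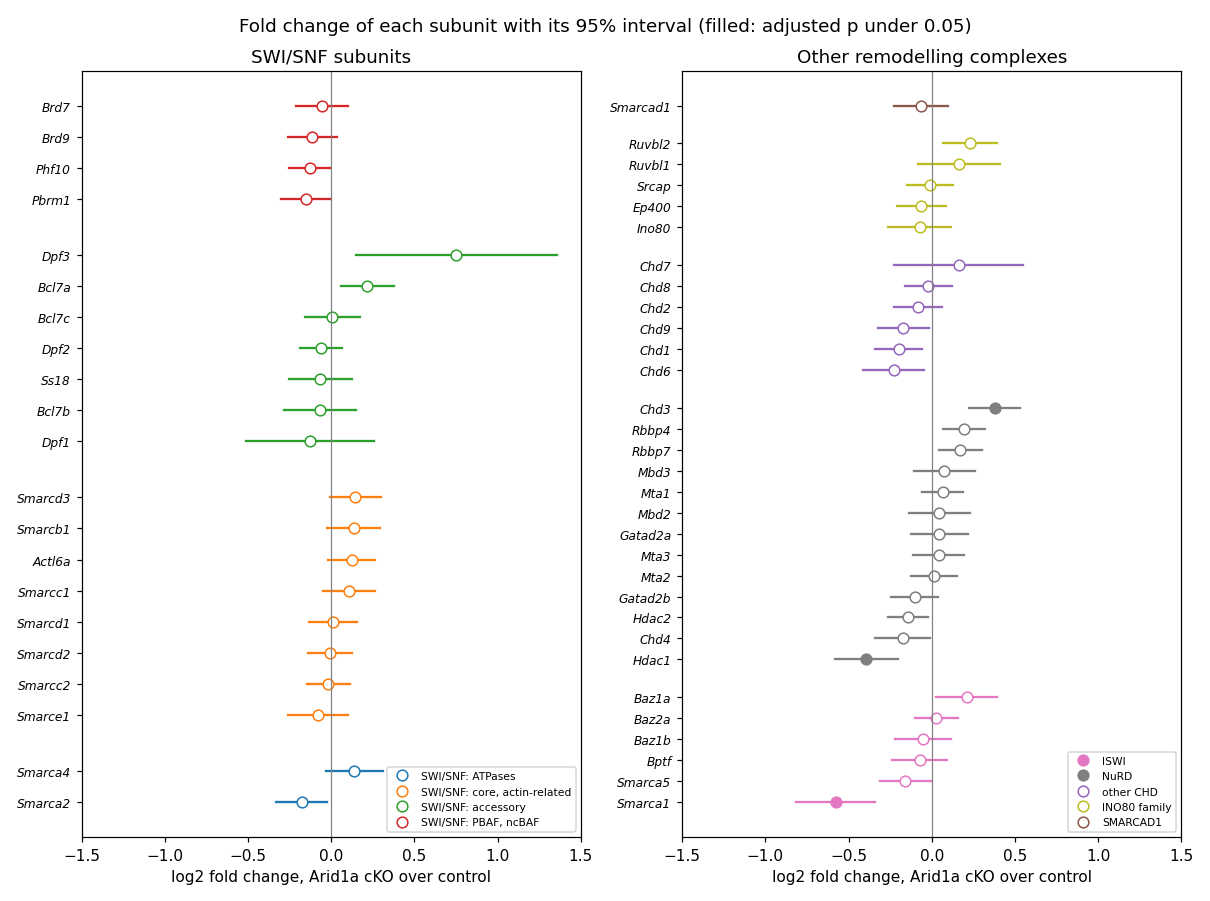
Log2 fold change of each subunit in Arid1a cKO over control with its 95% interval, SWI/SNF on the left and the other complexes on the right, filled where the adjusted p is under 0.05. The 3 filled points are Smarca1, Chd3 and Hdac1, and most SWI/SNF intervals include 0.

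In the other complexes, 3 of 31 subunits passed the threshold: Smarca1 and Hdac1 fell and Chd3 rose (9.68% of the 31, against 3.96% of all genes tested). The count was 2 without Arid1a cKO replicate 1 and 0 without any other single library. Rises were called in 1.5% and falls in 2.46% of all genes tested. The median log2 fold change of the 31 was -0.02. Values did not overlap between the groups in 14 of the 31 (45.2%, against 29.1% of all genes), 6 higher and 8 lower in Arid1a cKO. At an unadjusted p under 0.05 there were 13 of 31, against 22% of all genes tested.

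Among the ISWI genes, Smarca1 fell 1.49-fold in Arid1a cKO. Smarca1 encodes SNF2L, an ISWI ATPase best known from neurons, and lies on the X chromosome (X, 47809368 to 47892974, mm10, minus strand). Its level was 119.8, 103 and 99.4 CPM in control and 63.1, 76.7 and 76.5 CPM in Arid1a cKO. Every Arid1a cKO library lay below every control library (mean 107 ± 10.9 against 72.1 ± 7.81 CPM, SD, n = 3). The log2 fold change was -0.58 with an SE of 0.102 and a 95% interval of -0.81 to -0.34 (edgeR adjusted p = 0.0272). Within the libraries that express Xist the values were 99.4 CPM in control replicate 3 and 63.1 CPM in Arid1a cKO replicate 1, the lowest of each group. The same 2 libraries had the highest scores for dental epithelium. The adjusted p by edgeR was 0.0105 with sex-linked expression as a covariate and 0.0212 with the epithelium score. Leaving out any 1 control library, or Arid1a cKO replicate 2 or 3, ended the call, with an adjusted p of up to 0.0807 by edgeR at log2 fold changes of -0.63 to -0.49. It held without Arid1a cKO replicate 1 (0.0356 by edgeR).

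As Smarca1 had the largest change of the 3 called members, the 250 bases before its RefSeq start are shown (GRCm38.p6, chrX:47892614-47892863, minus strand, 5′ to 3′), with the GC box GGGCGG in capitals. The GENCODE gene given above begins further upstream, at 47892974, so this stretch lies within its bounds. Which start is used in this tissue was not tested.

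Smarca1 promoter: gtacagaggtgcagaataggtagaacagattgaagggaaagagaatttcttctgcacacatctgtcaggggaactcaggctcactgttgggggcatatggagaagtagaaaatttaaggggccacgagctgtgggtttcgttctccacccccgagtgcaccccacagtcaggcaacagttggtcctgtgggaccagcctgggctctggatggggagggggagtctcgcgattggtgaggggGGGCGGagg

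This stretch held 1 GC box, 1 CCAAT box (CCAAT or its complement ATTGG), no TATAAA on either strand and 6 CpG dinucleotides. RefSeq promoters were matched for 42 of the 53 members, 48 in all, and their median was 21 CpG, so that only 2 member promoters held fewer than that of Smarca1. A GC box, searched on both strands as GGGCGG or CCGCCC, was found in 83.3% of the 48 member promoters, in 53.9% of 15903 promoters of genes tested and in 32.7% of all 32851 promoters of this length. CCAAT was found in 37.5%, 34.7% and 33.8%, and TATAAA in 6.25%, 6.94% and 12.4%.

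The paralogue Smarca5, which encodes SNF2H, the ISWI ATPase of dividing cells, did not pass. It measured 93.4, 94.7 and 85.4 CPM in control and 76.7, 83.2 and 85.1 CPM in Arid1a cKO (log2 fold change -0.16, edgeR adjusted p = 0.219). Its groups did not overlap, but they did once the counts of 5 pseudogenes that share 75-base stretches with it were added, at 130.4 to 145.9 CPM in control and 125 to 130.7 CPM in Arid1a cKO. Without these pseudogene counts, Smarca1 stood at 1.63, 1.39 and 1.48 times the level of Smarca5 per kb in control. In Arid1a cKO it stood at 1.04, 1.17 and 1.14 times. These ratios would be lower with the pseudogene counts added to Smarca5, so they do not settle which of the 2 genes is the more abundant. Of the ISWI partners, Baz1a, the large subunit of ACF and CHRAC, measured 25.6, 24.4 and 25.2 CPM in control. In Arid1a cKO it measured 31.8, 27.7 and 27.4 CPM, without overlap (log2 fold change 0.21, adjusted p = 0.173). Baz1b, Baz2a and the NURF subunit Bptf had log2 fold changes from -0.07 to 0.03, and their groups overlapped.

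Within NuRD, Chd3 rose 1.30-fold. Chd3 and Chd4 encode alternative ATPases of the complex, and they are known to act at different stages of cortical development. Chd3 (chromosome 11, 69343273 to 69369406, minus strand) stood at 417, 417 and 409 CPM in control and at 537, 542 and 536 CPM in Arid1a cKO. The spread within each group was small, an SD of 4.53 CPM in control and 3.19 CPM in Arid1a cKO (n = 3 each), and the groups lay far apart. The log2 fold change was 0.38 with an SE of 0.0655 and a 95% interval of 0.23 to 0.53 (edgeR adjusted p = 0.0255). It lay between 0.37 and 0.40 in each alternative analysis. As for Smarca1, the call held without Arid1a cKO replicate 1 (edgeR adjusted p = 0.0386) and was lost without any other single library (up to 0.0807).

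Chd4 (chromosome 6, 125095981 to 125130591, plus strand) measured 533, 513 and 503 CPM in control and 451, 440 and 479 CPM in Arid1a cKO. Its groups did not overlap either, but the difference missed the threshold (log2 fold change -0.18, edgeR adjusted p = 0.210). The ratio of Chd3 to Chd4 per kb was 0.743, 0.773 and 0.773 in control and 1.13, 1.17 and 1.06 in Arid1a cKO. Chd4 was thus the more abundant of the pair in each control library and Chd3 in each Arid1a cKO library. The same order held with the longest coding transcript as length, with mean ratios of 0.741 and 1.09. The 2 genes share no stretch of 75 bases, the read length, in the GENCODE transcripts.

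**Figure D3:**
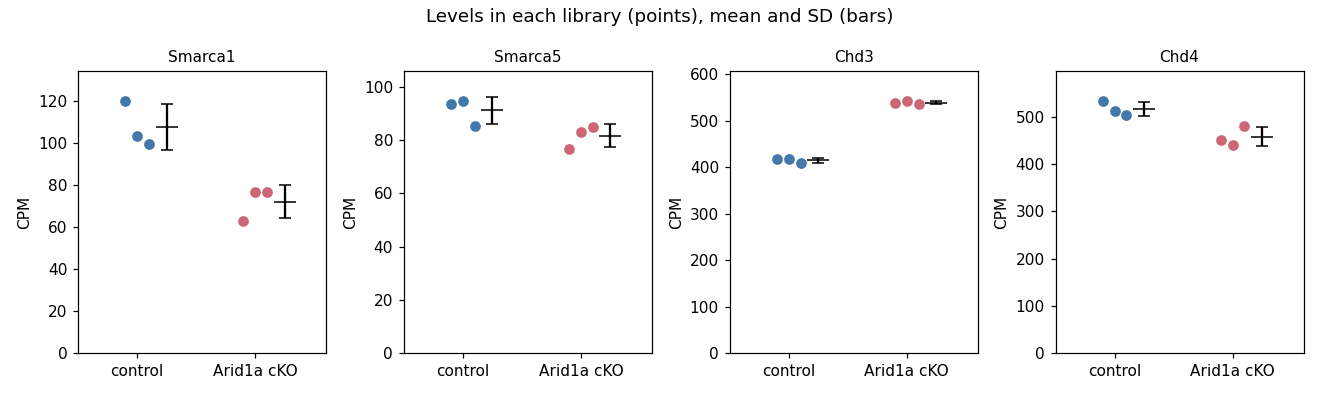
Levels in CPM of the ISWI ATPase genes Smarca1 and Smarca5 and the NuRD ATPase genes Chd3 and Chd4, with 1 point per library and bars for mean and SD (n = 3), each axis starting at 0. Smarca1 was lower and Chd3 higher in all 3 Arid1a cKO libraries than in any control library.

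The deacetylase gene Hdac1 fell 1.31-fold, a call that was lost when the counts of its pseudogenes were added. Hdac1 (chromosome 4, 129516104 to 129542713, minus strand) measured 36.6, 34.7 and 40.3 CPM in control and 27.7, 30.5 and 26.9 CPM in Arid1a cKO, without overlap. The log2 fold change was -0.39 with an SE of 0.0821 (edgeR adjusted p = 0.0437). The processed pseudogene Gm10093, a copy of the Hdac1 coding sequence on chromosome 17, carried more counts than Hdac1 itself: 73.9, 64.1 and 69.5 CPM in control and 70.6, 68.4 and 71.1 CPM in Arid1a cKO. The copy differs from the 1446 bases of the Hdac1 coding sequence at 9 of 1444 aligned bases (99.4% identity), and 73.3% of the 75-base stretches of that coding sequence occur in it unchanged. The following stretches of 75 bases, the read length, show how alike the 2 genes are. The first is the same in both, and the second pair, with the most differences of any such stretch, differs at 6 bases, in capitals. Positions in Hdac1 are counted from the first coding base, and those of Gm10093 are on the plus strand of mm10.

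Hdac1 coding bases 1 to 75, same as Gm10093 chr17:78491582-78491656: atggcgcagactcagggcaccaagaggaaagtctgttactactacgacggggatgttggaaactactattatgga
Hdac1 coding bases 408 to 482: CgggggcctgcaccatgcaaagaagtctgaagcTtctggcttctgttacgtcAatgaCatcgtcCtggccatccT
Gm10093 chr17:78491989-78492063: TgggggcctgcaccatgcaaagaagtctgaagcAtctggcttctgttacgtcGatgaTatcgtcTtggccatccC

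When the counts of Gm10093 and of a second pseudogene that shares 75-base stretches with Hdac1 were added to it (how reads were divided among them before deposit was not tested), the sum was 115, 104 and 115 CPM in control and 109, 109 and 108 CPM in Arid1a cKO. The groups then overlapped, and the log2 fold change was -0.04 (edgeR adjusted p = 0.768). The Hdac1 call was also lost without each of the 6 libraries in turn, with an adjusted p of up to 0.139, at log2 fold changes of -0.45 to -0.32. It was lost as well with upper quartile or library size normalization, limma-voom, limma on the authors' normalized table, or a covariate for dental epithelium, where the adjusted p lay between 0.0518 and 0.0585 at log2 fold changes of -0.40 to -0.36. Hdac2, the partner deacetylase, shares no 75-base stretch with another gene. It measured 134.9, 128 and 128 CPM in control and 117, 118 and 119 CPM in Arid1a cKO, without overlap (log2 fold change -0.14, adjusted p = 0.169).

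**Figure D4:**
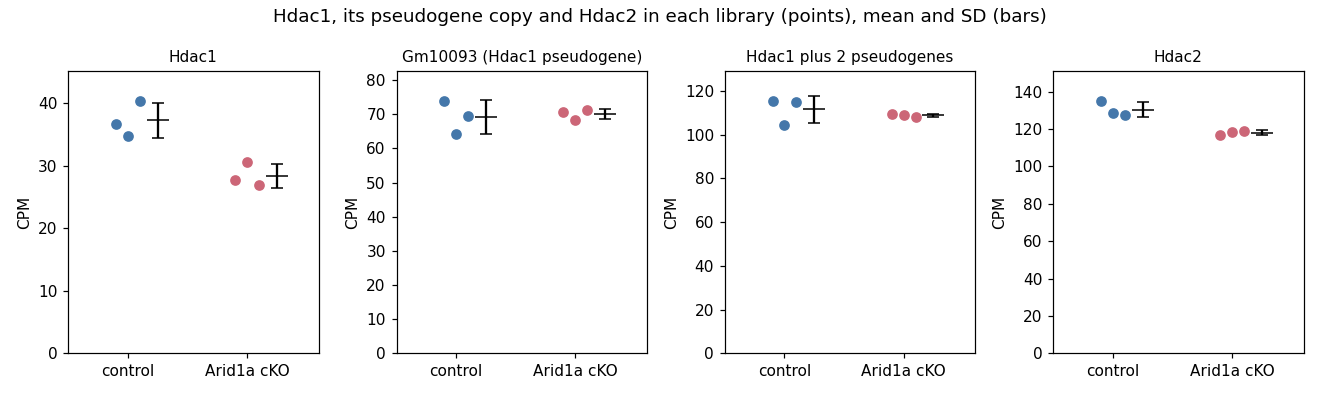
Levels in CPM of Hdac1, its pseudogene copy Gm10093, Hdac1 with 2 pseudogenes added, and Hdac2, with 1 point per library and bars for mean and SD (n = 3), each axis starting at 0. Hdac1 was lower in all 3 Arid1a cKO libraries, while Gm10093 and the sum overlapped between the groups.

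The histone chaperones Rbbp4 and Rbbp7, shared by NuRD and other complexes, came next in NuRD. Rbbp4 measured 165, 169 and 171 CPM in control and 192, 197 and 189 CPM in Arid1a cKO (log2 fold change 0.19, edgeR adjusted p = 0.0861). DESeq2 called it with an adjusted p of 0.0184. Of the exon bases of Rbbp4, 9.1% overlap Gm26722 and 8.9% overlap Sync on the opposite strand. Of those of Rbbp7, 6.0% overlap Txlng on the opposite strand, so reads may be mixed in both. X-linked Rbbp7 measured 179.5, 171 and 172 CPM in control and 197, 198 and 193 CPM in Arid1a cKO (0.17, edgeR adjusted p = 0.119). Both stood higher in each Arid1a cKO library, as did the 10 markers of dividing cells, of which 7 rose and 0 fell (summed level 532 to 597 CPM in control and 724 to 809 CPM in Arid1a cKO). The part of these cells in the levels of Rbbp4 and Rbbp7 was not tested. The remaining NuRD subunits lay close to 0: Mta1, Mta2 and Mta3, which link deacetylase and ATPase, Mbd2, Mbd3, Gatad2a and Gatad2b had log2 fold changes from -0.10 to 0.08, and none of their adjusted p-values was below 0.361. Among these 7 genes, values did not overlap between the groups in Mta1, at 95.9 to 100.7 CPM in control and 101 to 106 CPM in Arid1a cKO.

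Of the 6 CHD genes outside NuRD, 5 had a negative log2 fold change, with Chd8 above 0 under library size scaling, and none passed. Chd1, which acts with transcription elongation, measured 92.2, 88.8 and 84.7 CPM in control and 75.2, 75.2 and 81.1 CPM in Arid1a cKO (log2 fold change -0.20, edgeR adjusted p = 0.110). Chd6 measured 269, 275 and 258 CPM in control and 206, 236 and 243 CPM in Arid1a cKO (-0.23, adjusted p = 0.147). Chd9 measured 154, 157 and 151 CPM in control and 126, 141 and 143 CPM in Arid1a cKO (-0.17, adjusted p = 0.183). In these 3 genes the groups did not overlap, with Arid1a cKO lower, as in 15.3% of all genes tested. They overlapped in Chd2, which shares 18.4% of its exon bases with 1810026B05Rik on the same strand, in Chd8 and in Chd7, the CHARGE syndrome gene, which had a low level of 12.8 ± 1.17 CPM in control and 14.4 ± 3.25 CPM in Arid1a cKO (SD, n = 3).

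Of the 5 INO80 family genes none passed. The ATPases Ino80, Srcap and Ep400 had log2 fold changes from -0.07 to -0.01, with Srcap above 0 under upper quartile and library size scaling, and overlapped between the groups. Srcap shares 61.7% of its exon bases with Gm42715 on the same strand, so its level is uncertain. The AAA+ ATPases Ruvbl1 and Ruvbl2, which assemble these complexes, had positive values. Ruvbl2 measured 32.1, 30.4 and 32.8 CPM in control and 39.7, 36.9 and 35.1 CPM in Arid1a cKO, without overlap (log2 fold change 0.23, edgeR adjusted p = 0.111). Of its exon bases 10.7% are shared with Gys1 and 4.8% with Lhb on the opposite strand, so reads of these genes may be mixed. Ruvbl1 overlapped (0.16, adjusted p = 0.402), and 40.5% of its 75-base stretches occur in other genes, mostly in its pseudogene Gm5837. Smarcad1, a SNF2-family ATPase that acts at replicating heterochromatin, measured 56.1 ± 2.13 CPM in control and 53.7 ± 3.92 CPM in Arid1a cKO (SD, n = 3).

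Of 53 further genes of remodelling complexes and SNF2-like ATPases, taken from a list chosen as the members were, 2 rose and 0 fell (3.77%, against 3.96% of all genes tested). Sall1, a zinc-finger repressor that recruits NuRD, measured 15.5, 11.9 and 13.9 CPM in control and 24.5, 26.6 and 25.3 CPM in Arid1a cKO. It rose 1.85-fold (log2 fold change 0.89, SE 0.105, edgeR adjusted p = 0.0116) and passed without each library in turn. Rad54l, a SNF2-like motor of homologous recombination, measured 13.4, 12.9 and 12.2 CPM in control and 17.5, 19.6 and 16.4 CPM in Arid1a cKO (1.39-fold, edgeR adjusted p = 0.0396). Its call was lost without each of the 6 libraries in turn (adjusted p up to 0.118). The 10 markers of dividing cells, 7 of which rose, were also higher in each Arid1a cKO library, and their part in the level of Rad54l was not tested. The next smallest p belonged to Hells (log2 fold change 0.31, adjusted p = 0.0612), Rad54b (0.52, 0.0619) and Baz2b (-0.29, 0.0901), none past the threshold. The other 6 SWI/SNF subunits of this list, among them Bicra, Bicral and Ss18l1, did not pass, and neither did the 26 INO80, SRCAP and TIP60 subunits.

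Members varied little between libraries of a group. The coefficient of variation had a median over the 52 members of 4.24% in control and 4.56% in Arid1a cKO, where the medians over all genes tested were 9.36% and 9.67%. Genes were not matched for level in this comparison, and the part of level in the difference was not tested. The SE of the log2 fold change ranged from 0.0527 for Hdac2 to 0.261 for Dpf3, with a median of 0.0669.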

How the data were processed

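Members, families and the further lists were chosen with earlier results of these data known. The submitters' processing notes list the tools STAR 2.6.1d and Partek and the build mm10. The sources used here give no annotation release, library kit or strand setting. The authors deposited estimated counts for 25703 genes, of which 54% to 57.6% per library lie within 0.01 of a whole number, and a table of normalized signal for 21456 genes. Each deposited signal is the count plus 1 over 1 factor per library, to within 0.000674%, as tested on the values.

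Estimated counts were rounded. Genes were kept with filterByExpr (minimum count 10), which left 19613, scaled by TMM (factors 0.961 to 1.04) and tested with edgeR's quasi-likelihood F test (robust, two-sided, no covariate), with Benjamini-Hochberg adjustment across every gene tested and a threshold of 0.05. The common biological coefficient of variation was 15.8%. SE was taken as the size of the log2 fold change over the root of F, and 95% intervals use its t quantile. Fold changes in words are ratios of mean CPM. Lengths and overlaps came from GENCODE M21 (same start for 52 of 52 members) and promoters from RefSeq GRCm38.p6. Replicates follow accession order within a genotype. Libraries of a group differed by more than sampling noise (chi-square per degree of freedom at least 29.3).

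Named were Arid1a, members past the threshold, the 3 smallest p and the highest and lowest levels per family, paralogues, and the called and next 3 genes of the further list. On simulated counts of this comparison (19268 genes tested), the test recovered 40% of the genes changed 1.5-fold. It recovered 64% for 2-fold, 86% for 4-fold and 98% for 8-fold changes, and 18 of 162 calls were of unchanged genes. Alternatives were other normalizations, filters, tools, covariates, each library left out and, chosen after seeing the data, pseudogene counts added to members and another gene length. Software was R 4.3.3 with DESeq2 1.42.0, limma 3.58.1 and edgeR 4.0.16, and Python 3.11.15 with Biopython 1.88 and matplotlib 3.10.9.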

Additional observations from a re-analysis of the deposited data

How the results depend on the processing

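The count of SWI/SNF members past the threshold was 0 in each of 20 alternatives. The count of all genes past it, 777 in the edgeR analysis, was 1905 with DESeq2 and 1218 with sex-linked expression as a covariate, and ranged from 160 to 532 with a library left out. For the other complexes the count of 3 ranged from 0 to 2 with a library left out, where fewer samples were compared. With all 6 libraries it was 4 with DESeq2. It was 2 with upper quartile or library size scaling, limma-voom and the authors' normalized table. It was also 2 with the epithelium covariate and with pseudogene counts added. For the 53 further genes the count of 2 was 7 with DESeq2, 1 with limma-voom, 5 with sex-linked expression as a covariate and 1 with any library left out. The causes were not tested. Of 58 genes, the 52 measured members, Arid1a and 5 of the further list, 45 kept the sign of their log2 fold change in each alternative, among them the 3 called members. The 13 others, with log2 fold changes of -0.08 to 0.05 except for Chd7 at 0.16, did not pass the threshold in any alternative. Smarcc2 stood at 0.00195 with upper quartile and 0.00671 with library size scaling, and Chd8 at 0.00402 with library size scaling. Smarcd2 stood at 0.012 and 0.0183 with these scalings, 0.00989 and 0.009995 on the authors' normalized table with a pseudocount of 1 and 0.5, 0.00717 with at least 1 CPM required in all libraries and 0.000568 with the epithelium covariate. The values of Srcap were 0.0104, 0.0154, 0.00828, 0.0083 and 0.00529 in the first 5 of these settings. With a library left out, the ranges that crossed 0 were -0.0304 to 0.00482 for Smarcc2, -0.0239 to 0.0537 for Smarcd1, -0.0339 to 0.0246 for Smarcd2, -0.122 to 0.00155 for Smarce1 and -0.137 to 0.00823 for Ss18. They were -0.0235 to 0.0753 for Bcl7c, -0.0916 to 0.00836 for Brd7, -0.0852 to 0.0117 for Baz1b, -0.0157 to 0.0536 for Mta2, -0.0230 to 0.118 for Mbd2, -0.0243 to 0.308 for Chd7, -0.0532 to 0.0104 for Chd8 and -0.0191 to 0.0200 for Srcap. The pseudogene sums and the second gene length were chosen after seeing the data. The extraction protocol speaks of 3 pairs of samples. No paired analysis was possible because the replicate numbers follow accession order and the labels do not say which libraries form pairs. Dpf3, with 43 to 164 counts per library, had the widest interval of all members, and the part of depth in it was not tested.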
